A study of Drosophila melanogaster with 39 samples.

Results

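The integrated stress response was followed through 8 genes in single fly heads from 5 groups that differed in shock and in place preference. The genes are asparagine-synthetase, crc, Thor, PEK, Gcn2, Xrp1, Xbp1 and Hsc70-3, which is 8 of the 17559 genes in the deposited count table. Their names fixed the choice, apart from asparagine-synthetase. That gene was selected on its measured difference between shocked Mid and naive Mid heads, so its differences between groups are given as a description, with no test, wherever shocked Mid or naive Mid heads are on 1 side. Its tested correlations, further on, use deviations from the group means, from which group differences are removed. The spread of the Mid heads about their means can favour the selection of a gene and stays in these deviations. Those tests are therefore not fully free of the selection. A ranking of likeness also given keeps the group differences, and is a description with no test. All 8 passed the filter on low counts, which kept 10272 genes.

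Each library was made from the polyadenylated RNA of 1 head of an adult male Drosophila melanogaster of the Cantonized w1118 genotype, a white-eyed laboratory genotype kept at 25°C. The groups with counts were 7 heads of naive Mid flies, 7 of naive High flies, and 8, 6 and 9 heads of shocked Mid, shocked High and shocked Low flies. The class (High, Mid or Low) refers to the fly's place preference, and its bounds are not known from the labels. The protocol describes shocks of 60 V for 5 min, the preference assay at 1.5 h and freezing at 2.5 h, in the same words for naive and shocked flies, so the titles alone tell the 2 apart. There was no naive Low group, and the shocked Low heads were therefore compared with naive High and with the other shocked heads. If the classes come from that assay they were set after the shock, and shocked and naive heads of 1 class are then not the same selection of flies.

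The integrated stress response is a brake on protein synthesis that several stresses share. Kinases that sense misfolded protein in the endoplasmic reticulum (PEK, the fly PERK) or missing amino acids (Gcn2) phosphorylate the initiation factor eIF2, which slows most translation while it favours the translation of crc, the fly ATF4. The transcription factor crc then raises genes for amino acid synthesis and for translational control, among them Thor, the fly 4E-BP. Asparagine synthetase makes asparagine from aspartate with glutamine as the nitrogen donor, and in mammals its gene is a standard target of ATF4. Xrp1 is a related basic leucine zipper factor that acts with the PEK branch and in cell competition. Xbp1 and Hsc70-3 belong to the unfolded protein response beside it, as a transcription factor activated by splicing through Ire1 and as the chaperone BiP. Counts per gene show neither phosphorylation, nor translation, nor the splicing of Xbp1.

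Library totals lay between 5.01 and 11.3 M counts (megacounts) around a median of 7.65 M, and 11399 to 12344 genes were detected. Libraries of 1 group differed by more than sampling noise in all 121 pairs, with a chi-square per gene of 7.94 to 97.0. Over the libraries the members had at least 124 counts each, the lowest count being one of Gcn2. A pair of libraries stands apart in what follows, as shocked High replicate 3 and shocked Low replicate 3 had the highest asparagine-synthetase of their groups. Without the former, 548 genes in place of 7 passed between shocked High and shocked Mid heads, and without the latter 52 in place of 2 passed between shocked Low and shocked Mid heads. None of the 7 members tested in these contrasts passed in either case.

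Per kilobase of exon, crc was the most abundant member, at 469 counts per M counts of the library (CPM) per kb (SD 32.4, n = 37). It was followed by Xbp1 at 220, Thor at 199, Xrp1 at 143 and Hsc70-3 at 102 CPM per kb. The enzyme gene asparagine-synthetase stood at 46.2 CPM per kb (SD 12.4), and the kinase genes were lowest, PEK at 18 and Gcn2 at 5.14 CPM per kb. Much of the crc value cannot be assigned to crc alone, because 2515 of its 3423 exon bases (73.5%) are also exon of CG46314 on the same strand, a gene with no row of its own in the table.

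Asparagine-synthetase is annotated in the current release as AsnS, a single-transcript gene of 1856 exon bases on chromosome 3L, positions 21173118 to 21174973 of dm6, plus strand. In naive Mid heads its level was 57.5 CPM at the lowest, 67.9 at the median and 87.8 at the highest. In naive High heads the same 3 values were 51.4, 63.4 and 98.2 CPM. In shocked High heads they were 61.8, 79.3 and 127.8 CPM. The naive groups overlapped widely, and the spread was larger in the High heads than in naive Mid heads. In shocked Mid heads the level was 99.4 CPM at the lowest, 118.3 at the median and 130 at the highest. In shocked Low heads it was 62.9, 75.0 and 111.6 CPM. Every shocked Mid head thus lay above every naive Mid head. Of 10272 genes, 0.428% had shocked and naive Mid heads that did not overlap, and 0.0876% had shocked and naive High heads that did not, a pair of groups in which asparagine-synthetase overlapped. The level of the lowest shocked Mid head was reached by 2 of the other 29 libraries, shocked High replicate 3 and shocked Low replicate 3.

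The group means ran from 70.0 ± 9.38 CPM (SD, n = 7) in naive Mid and 72.8 ± 18.3 (n = 7) in naive High, through 80.0 ± 16.2 (n = 9) in shocked Low and 85.8 ± 22.8 (n = 6) in shocked High, to 116.9 ± 11.2 (n = 8) in shocked Mid. Neighbours in this order differed by less than their SDs except the last pair. The coefficient of variation was lowest in shocked Mid, 9.61%, then in naive Mid, 13.4%, and highest in shocked High, 26.6%. The gene was selected on the 2 Mid groups, and a small spread there favours such a selection. As a description, the fitted log2 fold change of shock within Mid was 0.74 (SE 0.14), a fold of 1.67. Shocked High heads were lower than shocked Mid heads by a log2 difference of −0.45 (SE 0.14), and shocked Low heads by −0.55 (SE 0.13). The difference between the shock effects in High and in Mid was −0.50 (SE 0.20), again with no test.

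Where the Mid heads do not enter, the gene could be tested. Shock within High gave a log2 fold change of 0.23 (SE 0.15, 95% interval −0.06 to 0.53), with 5 of 6 shocked heads above the naive mean, and did not pass (edgeR's quasi-likelihood test, adjusted p = 0.863). Without shocked High replicate 3 this value was 0.09. Shocked Low against naive High gave 0.13 (SE 0.13, interval −0.13 to 0.40; edgeR adjusted p = 0.978). Shocked Low against shocked High gave −0.10 (SE 0.14, interval −0.38 to 0.18; edgeR adjusted p = 0.998). In the authors' deposited table the log2 fold change from naive Mid to shocked Mid was 0.73, from naive High to shocked Mid 0.63, from shocked High to shocked Mid 0.44 and from shocked Mid to shocked Low −0.55. Its log2 fold changes there are given with no q-value, because these comparisons use shocked Mid heads.

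The gene lies inside chb, which encodes a microtubule-associated protein and is transcribed on the same strand, but the exons of the pair share 0 bases. The level of chb was between 70.1 and 80.3 CPM in the 5 group means, with 70.1 ± 4.33 (n = 7) in naive Mid and 75.0 ± 6.91 (n = 8) in shocked Mid.

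**Figure D1:**
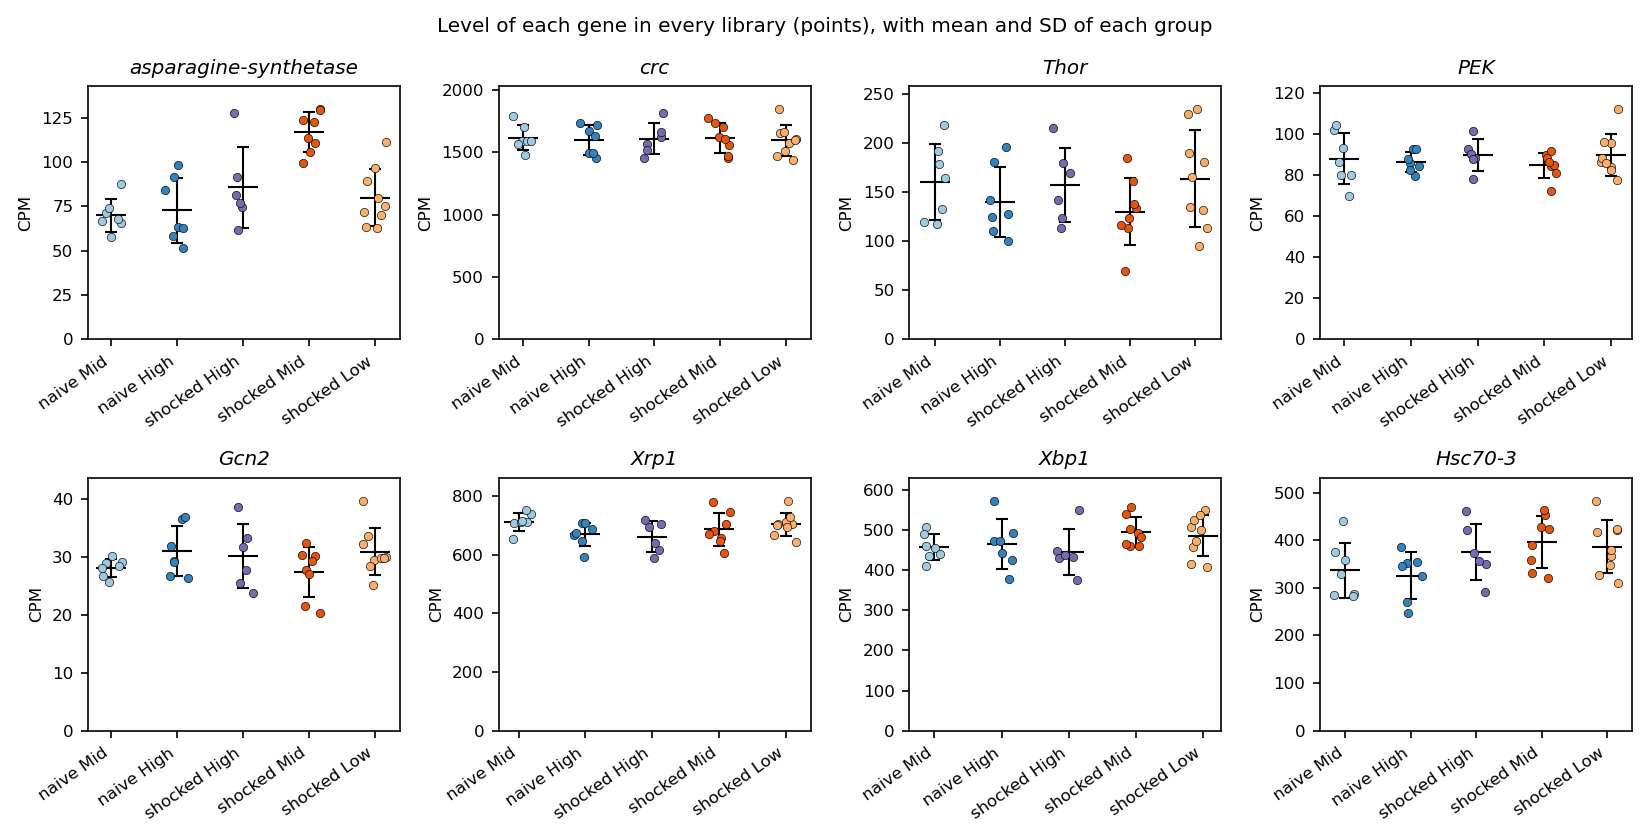
Level of each of the 8 genes in CPM (vertical axes, from 0) in every library (points), by group, with bars for the mean and SD. The 8 shocked Mid heads lie above the 7 naive Mid heads for asparagine-synthetase, from 99.4 CPM against up to 87.8 CPM, while the groups of the other 7 genes overlap.

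None of the other 7 members passed in any comparison. Over the 5 groups together 0 of 7 passed, against a background of 0.107% of the genes tested, and the member nearest to the threshold was Hsc70-3 (edgeR F test, adjusted p = 0.423). Shock within Mid called 0 of 7 (background 0.0195%, with 13.1% of genes at an unadjusted p under 0.05), and shock within High 0 of 8 (background 0%, 5.66% unadjusted). Their interaction called 0 of 7, against a background of 0% (12.3% unadjusted). The backgrounds were 0% for naive High against naive Mid, 0.0681% for shocked High against shocked Mid and 0.0195% for shocked Low against shocked Mid, with 0 of 7 members called in each. At an unadjusted p under 0.05 these comparisons had 3.09%, 17.5% and 14% of the genes. For shocked Low against shocked High and against naive High the background was 0% and 0 of 8 members were called, with 4.4% and 4.51% of the genes at an unadjusted p under 0.05. DESeq2 and limma with quality weights also called 0 members in every comparison, and single members are given below with the sizes that the intervals leave possible.

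The transcription factor crc (2L, 21310866 to 21319527, plus strand) had the narrowest range of the set, with a highest library 1.28 times the lowest. Its lowest library had 1440 CPM and its highest 1846 CPM, and the group means ran from 1595 ± 122 (n = 9) in shocked Low to 1616 ± 101 (n = 7) in naive Mid, a ratio of 1.01. Within Mid the log2 fold change was −0.00 (SE 0.06, interval −0.13 to 0.12), and within High it was 0.01 (SE 0.07, interval −0.13 to 0.14). The shocked Mid heads that had the highest asparagine-synthetase thus had crc at 1615 ± 118 CPM (n = 8), which differs from naive Mid by less than 1 SD.

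Both kinase genes were low and overlapped in all groups. The mean of PEK (3R, 5458563 to 5464753, minus strand), the kinase of the endoplasmic reticulum branch, lay between 84.8 ± 6.14 CPM (n = 8) in shocked Mid and 89.8 ± 10.3 (n = 9) in shocked Low. Shock within Mid gave −0.05 (SE 0.08) and within High 0.05 (SE 0.08) on the log2 scale. Gcn2 (3R, 31395660 to 31402013, plus strand), the kinase that responds to uncharged tRNA, lay between 27.4 ± 4.30 CPM (n = 8) in shocked Mid and 30.99 ± 4.33 (n = 7) in naive High. Its largest difference was between shocked Low and shocked Mid, 0.18 (SE 0.10; edgeR adjusted p = 0.419), with 8 of 9 shocked Low heads above the shocked Mid mean. Of the Gcn2 exon bases, 454 (7.9%) lie opposite exons of PNPase, and since the strand setting is not given, reads there cannot be told apart.

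Thor (2L, 3478434 to 3479612, plus strand) encodes the 4E-BP that binds the cap-binding factor eIF4E and holds back initiation. It was the most variable member from head to head, with a 3.35-fold range from 70.0 CPM in shocked Mid replicate 1 to 234.8 CPM in shocked Low replicate 6. In naive Mid heads its level was 117 CPM at the lowest, 165 at the median and 218.7 at the highest. In shocked Mid heads the values were 70.0, 128.4 and 185 CPM. Those groups overlapped, and so did all others. The lowest, median and highest were 99.8, 128.1 and 196.3 CPM in naive High, 113.7, 155.7 and 215.5 in shocked High, and 95.2, 165.5 and 234.8 in shocked Low. Shock within Mid gave a log2 fold change of −0.30 (SE 0.19, interval −0.68 to 0.08; edgeR adjusted p = 0.484), opposite in sign to that of asparagine-synthetase. Within High it was 0.17 (SE 0.20, interval −0.25 to 0.58), and the difference between the 2 effects was 0.47 (SE 0.28, interval −0.10 to 1.03; edgeR adjusted p = 0.49). Shocked Low exceeded shocked Mid by 0.33 (SE 0.18; edgeR adjusted p = 0.409), with 7 of 9 shocked Low heads above the shocked Mid mean, and this did not pass either.

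Xrp1 (3R, 18914968 to 18926989, plus strand) kept within 589 to 784 CPM in all 37 libraries. Its mean was highest in naive Mid, 711.8 ± 31.2 CPM (n = 7), and lowest in shocked High, 660.7 ± 52.8 (n = 6). The fold changes of shock were small, −0.05 (SE 0.06) within Mid and −0.02 (SE 0.06) within High on the log2 scale. The difference with the smallest unadjusted p was that of shocked Low over shocked High, 0.09 (SE 0.06; edgeR adjusted p = 0.998).

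Hsc70-3 (X, 11801696 to 11807117, minus strand), the BiP chaperone of the endoplasmic reticulum, was the only member other than asparagine-synthetase with a higher mean in each shocked group than in either naive group. Naive Mid heads held 282.5 CPM at the lowest, 328.6 at the median and 439.6 at the highest. Naive High heads held 247.2, 345.1 and 386.9 CPM. Shocked High heads held 291.6, 365.4 and 462 CPM. These ranges overlapped widely. Shocked Mid heads held 319.9, 407.2 and 463.1 CPM, and shocked Low heads 310.3, 379.8 and 483.5 CPM. The log2 fold change was 0.23 within Mid (SE 0.11, interval 0.01 to 0.46; edgeR adjusted p = 0.369) and 0.21 within High (SE 0.12, interval −0.04 to 0.45; edgeR adjusted p = 0.863). Against naive High, shocked Low heads were at 0.25 (SE 0.11, interval 0.03 to 0.47; edgeR adjusted p = 0.978). None of these passed, although the unadjusted p was 0.042 within Mid and 0.0296 for shocked Low. With High and Mid weighted equally, a contrast added after the data were seen, the value was 0.22 (SE 0.08; edgeR adjusted p = 0.640, unadjusted p = 0.0105), and the background was 0.00974% (6.3% unadjusted). The 2 shock contrasts within classes use different heads, and their difference was −0.03 (SE 0.16, interval −0.36 to 0.30). In the authors' deposited table Hsc70-3 had a log2 fold change of 0.23 from naive Mid to shocked Mid with q = 0.227, the lowest q of these 7 genes there.

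Xbp1 (2R, 21143545 to 21145750, plus strand), whose spliced form encodes the factor that drives chaperone genes, had its highest mean in shocked Mid, 494 ± 36.9 CPM (n = 8), and its lowest in shocked High, 445 ± 56.8 (n = 6). The lowest library held 374 CPM and the highest 573 CPM. Shock gave 0.11 within Mid (SE 0.08, interval −0.05 to 0.27; edgeR adjusted p = 0.523) and −0.06 within High (SE 0.08, interval −0.23 to 0.11; edgeR adjusted p = 0.930). All 8 shocked Mid heads lay above the naive Mid mean, but the groups overlapped. Shocked High was lower than shocked Mid by −0.15 (SE 0.08; edgeR adjusted p = 0.342).

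**Figure D2:**
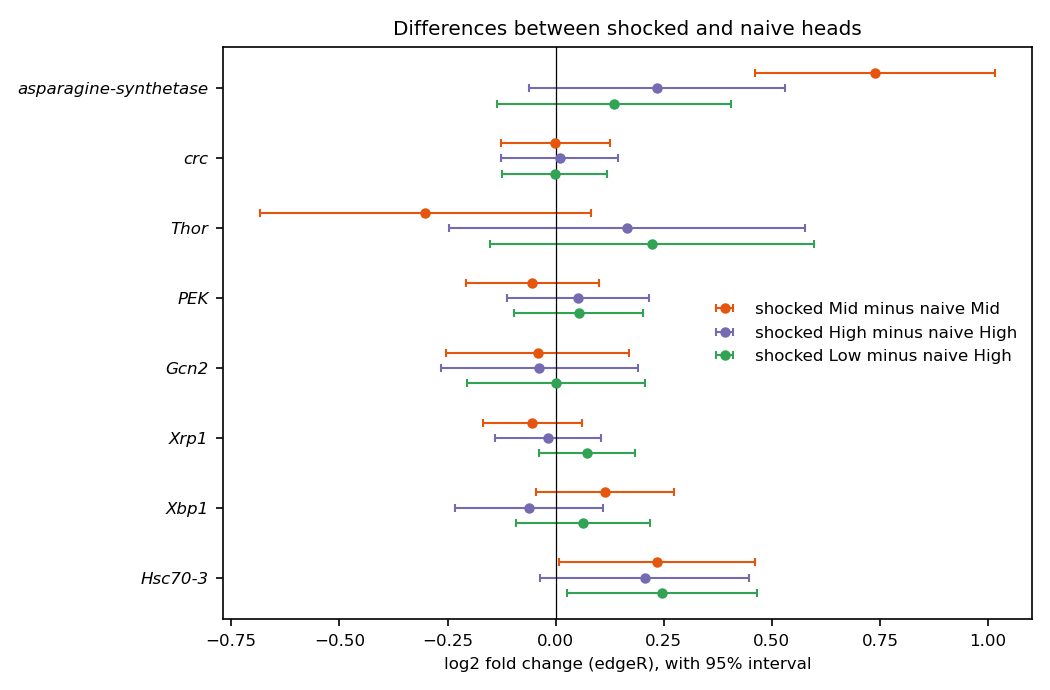
Log2 fold change fitted by edgeR (horizontal axis) with its 95% interval for each gene, for shock within Mid, shock within High, and shocked Low against naive High. Asparagine-synthetase within Mid has the largest value, 0.74, for which it was chosen, so its interval there is a description and no test. The 3 values of Hsc70-3 lie between 0.21 and 0.25. Those within High and for shocked Low share the naive High heads, and in the latter the class differs too.

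The wider pathway was read through 8 lists of genes around the members, which exclude the members themselves and were written with earlier results of these data known. Of their genes, 98 entered the tests, and 1 passed in any comparison. That gene was Nmdmc, a mitochondrial enzyme of folate metabolism, and it passed in the same contrast from which asparagine-synthetase was selected. Nmdmc was at 45.6 CPM at the lowest, 61.7 at the median and 212.9 at the highest in shocked Mid heads, against means of 23.1 to 27.4 CPM in the other 4 groups. Its log2 fold change was 1.81 within Mid (SE 0.32; edgeR adjusted p = 0.0216). It was lower by −1.81 in shocked High than in shocked Mid (SE 0.34; edgeR adjusted p = 0.0245) and by −1.94 in shocked Low (SE 0.30; edgeR adjusted p = 0.0014). Within High it was 0.25 (SE 0.34; edgeR adjusted p = 0.930), and the difference between both shock effects did not pass (−1.56, SE 0.47; edgeR adjusted p = 0.284). The first call was lost in 6 of 37 fits that left out 1 library, with adjusted p up to 0.0990, namely without naive Mid replicate 1, 2 or 3 or shocked Mid replicate 4, 5 or 6. The second was lost in 6 as well, with adjusted p up to 0.0924, without shocked High replicate 1, 2, 4 or 5 or shocked Mid replicate 5 or 6. The third held in all 37. With only the Mid groups in the fit the first call was lost too (edgeR adjusted p = 0.0610), and DESeq2 as run here gave no adjusted p for it. In the authors' deposited table the DESeq2 q of Nmdmc was 0.0044, 0.0064 and 0.00027 in these 3 contrasts. More genes had q under 0.05 there, 283, 525 and 195.

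Among 10 enzymes of serine and one-carbon metabolism the median log2 fold change of shock was 0.58 within Mid, with 8 of 10 positive and 1 passing, and −0.31 within High, with 3 of 10 positive and 0 passing. The median over all genes tested was 0.01 and −0.01. Chosen after their values were seen, 2 steps of serine metabolism are given here as values that did not pass. The phosphoserine phosphatase gene aay had 432 ± 235 CPM (n = 8) in shocked Mid and 213 ± 89.8 (n = 7) in naive Mid, a log2 difference of 1.02 (SE 0.28; edgeR adjusted p = 0.180). CG3011, the serine hydroxymethyltransferase gene Shmt, had 275 ± 122 CPM (n = 8) against 137 ± 54.5 (n = 7), a log2 difference of 1.00 (SE 0.33; edgeR adjusted p = 0.209). Both spread widely between shocked Mid heads, over 197 to 920 CPM for aay and 123 to 466 CPM for CG3011. Between shocked High and shocked Mid, 0 of the 10 genes were positive and the median was −0.98, with Nmdmc alone passing. Within High the 2 smallest p were those of CG6287, −0.44 (SE 0.21), and CG8665, −0.72 (SE 0.37), which did not pass (edgeR adjusted p = 0.863 for each).

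The list of asparagine, aspartate and glutamine metabolism also holds tRNA synthetase genes for asparagine and aspartate, and further aminotransferase genes. Of its 12 tested genes, 12 were positive within Mid with a median log2 fold change of 0.17, and 5 of 12 within High with a median of −0.02. None passed in either. As in the other lists, the genes were measured in the same heads, and the share of positive genes over all genes was not counted. The smallest p within Mid were those of CG1461, the tyrosine aminotransferase gene Tat (0.51, SE 0.18), and of Got2, the mitochondrial aspartate aminotransferase (0.51, SE 0.19). Got2 had 394 ± 131 CPM (n = 8) in shocked Mid and 277 ± 62.6 (n = 7) in naive Mid, and within High its log2 difference was −0.38 (SE 0.20). Gs1, a glutamine synthetase, was at −0.54 (SE 0.15; edgeR adjusted p = 0.115) in shocked Low against shocked Mid. Of 12 amino acid transporter genes 9 were positive within Mid with a median of 0.05, and 8 within High with a median of 0.02. The smallest p within Mid were those of path, 0.40 (SE 0.14; edgeR adjusted p = 0.226), and NAAT1, 0.43 (SE 0.15; edgeR adjusted p = 0.231).

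The upstream translation lists stayed close to 0. Of 11 genes for eIF2, its exchange factor eIF2B and the regulators of its phosphorylation, 5 were positive within Mid and 5 within High, with medians of −0.00 and −0.03. The exchange factor subunit eIF2B-delta had the smallest p within Mid (−0.21, SE 0.10; edgeR adjusted p = 0.374). Gadd34, the phosphatase subunit that reverses eIF2 phosphorylation, had means of 155 to 167 CPM in the 5 groups. Of 14 genes of cap binding and TOR signalling 10 were positive within Mid, with a median of 0.03, and 9 within High, with a median of 0.02. The RNA helicase gene eIF-4a gave 0.20 within Mid (SE 0.08; edgeR adjusted p = 0.282) and rictor, a subunit of TOR complex, −0.20 (SE 0.08; edgeR adjusted p = 0.282).

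The endoplasmic reticulum list was positive in most genes under both shock contrasts. Of 25 chaperone, secretion and degradation genes, 22 were positive within Mid with a median of 0.09, and 20 within High with a median of 0.06, with 0 passing in each. Both medians are smaller than the median SE over all genes tested, 0.13 within Mid and 0.14 within High. The genes were measured in the same heads, and the share of positive genes over all genes was not counted. Sec63, of the translocation machinery, gave 0.22 within Mid (SE 0.07; edgeR adjusted p = 0.230), and the chaperone gene Gp93, the fly GRP94, gave 0.52 (SE 0.18; edgeR adjusted p = 0.240). Hrd3, of the degradation machinery, gave 0.21 within High (SE 0.08; edgeR adjusted p = 0.863). Among 8 sensors and factors of the unfolded protein response, 4 were positive within Mid and 5 within High, with medians of 0.05 and 0.03. CrebA, a transcription factor of secretory genes, had 41.5 ± 12.0 CPM (n = 8) in shocked Mid and 28.1 ± 4.92 (n = 7) in naive Mid and did not pass (0.56, SE 0.18; edgeR adjusted p = 0.209). Of 6 tested Xrp1 partners and cell competition genes, 1 was positive within Mid and 0 within High, with medians of −0.08 and −0.12.

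**Figure D3:**
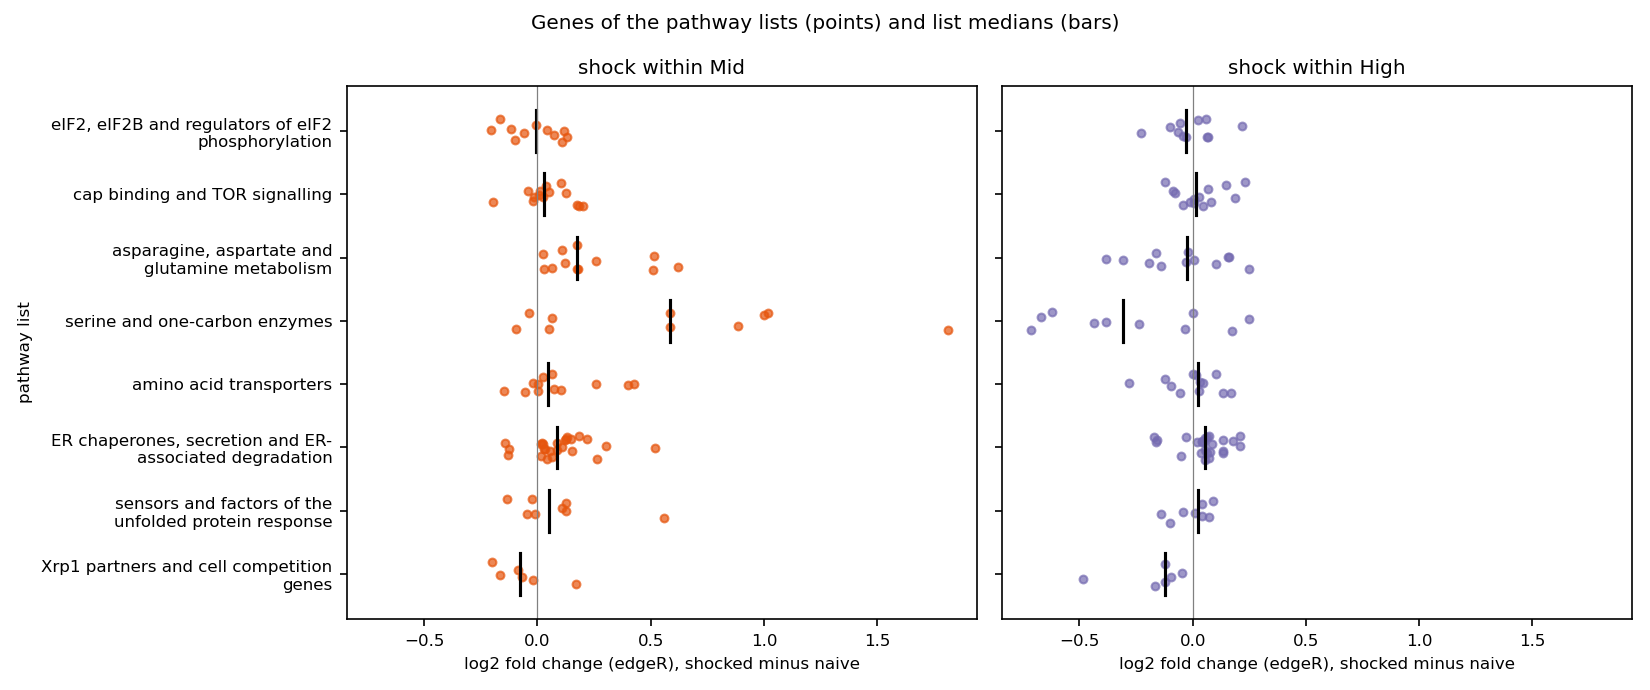
Log2 fold change fitted by edgeR (horizontal axes) of every tested gene of the 8 pathway lists (points) and the list medians (black bars), for shock within Mid and within High. The serine and one-carbon list has its median at 0.58 within Mid and −0.31 within High, and the eIF2 list lies near 0 in both.

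Heads of 1 group still differed from each other, and the members were compared across those differences. For each of the 28 pairs of members, log2 CPM was taken as the deviation from the group mean over 37 libraries, and a permutation test within groups was adjusted over the 28. In 4 pairs the correlation passed. Xbp1 and Hsc70-3 varied together most, with r = 0.72 and rho = 0.73 (permutation test, adjusted p = 0.00056 for each). Without naive High replicate 1 and shocked High replicate 3, the libraries farthest from the median, r was 0.67 (permutation test, adjusted p = 0.00112). The kinases PEK and Gcn2 had r = 0.49 and rho = 0.52 (permutation test, adjusted p = 0.0102 and 0.0120), and r was 0.49 without shocked Low replicate 8 and naive Mid replicate 4 (permutation test, adjusted p = 0.0216).

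Whether the correlations of asparagine-synthetase passed depended on the measure and on the libraries used. With Xbp1 it had r = 0.59 (permutation test, adjusted p = 0.0133) and rho = 0.47 (adjusted p = 0.0588 by permutation). With crc it had r = 0.48 (permutation test, adjusted p = 0.0414) and rho = 0.44 (adjusted p = 0.0588 by permutation). Without shocked High replicate 3 and shocked Low replicate 3 they fell short of the threshold, r being 0.51 with Xbp1 and 0.40 with crc (permutation test, adjusted p = 0.0558 and 0.0850). With Hsc70-3 the value was r = 0.45 and rho = 0.44 (permutation test, adjusted p = 0.0514 and 0.0588), with r = 0.45 without the same libraries. After removal of the linear relation with the total count, r was 0.73 with Xbp1, 0.47 with crc and 0.55 with Hsc70-3. All 3 then passed (permutation test, adjusted p = 0.00042, 0.030 and 0.0091). With Thor, the other member classed as a target, it was r = 0.17 and rho = 0.26 (permutation test, adjusted p = 0.498 and 0.308).

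**Figure D4:**
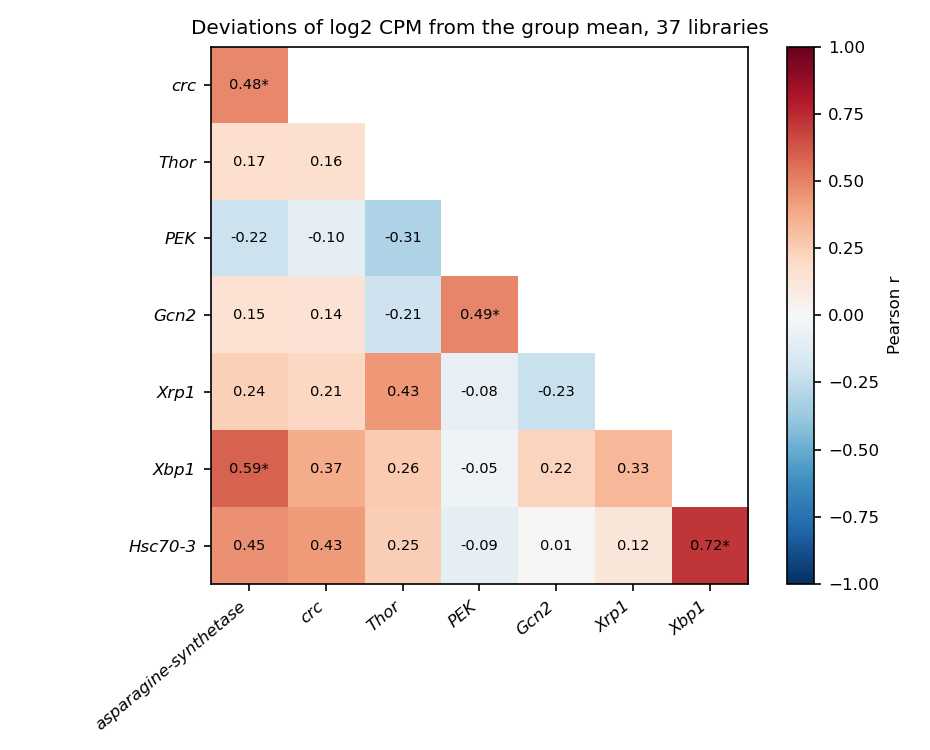
Pearson correlation of each pair of members over 37 libraries, as deviations of log2 CPM from the group mean (colour scale from −1 to 1), with stars on the pairs whose adjusted permutation p was under 0.05. Xbp1 with Hsc70-3, at 0.72, is the strongest, and PEK is negative with every member but Gcn2.

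A head holds several tissues, and in bulk RNA fewer cells of a type and less RNA per cell cannot be told apart. The asparagine-synthetase deviations moved with marker scores, each the mean log2 CPM of a marker list, in 48 relations that were added after the data were seen. With the fat body score r was 0.54 and rho 0.52 (permutation test, adjusted p = 0.0113 and 0.0254), and r was 0.54 without the 2 farthest libraries. With the neuron score r was −0.67 and rho −0.57 (permutation test, adjusted p = 0.00464 and 0.0186), and r was −0.54 without shocked High replicate 3 and naive High replicate 1. With the muscle score r and rho were both −0.48 (permutation test, adjusted p = 0.0251 and 0.0385), and r was −0.50 without the 2 farthest libraries. For crc the fat body value was r = 0.63 and rho = 0.65 (permutation test, adjusted p = 0.00312 and 0.00384), and for Xbp1 it was r = 0.54 and rho = 0.47 (permutation test, adjusted p = 0.0113 and 0.0446). Xbp1 also had r = −0.67 and rho = −0.59 with the neuron score (permutation test, adjusted p = 0.00312 and 0.00888). For crc and the muscle score r was −0.54 and rho −0.55 (permutation test, adjusted p = 0.0112 and 0.0117). This relation did not pass without shocked Low replicate 5 and naive Mid replicate 3, with r = −0.45 (permutation test, adjusted p = 0.0809). Hsc70-3 had r = 0.46 and rho = 0.43 with the haemocyte score (permutation test, adjusted p = 0.0290 and 0.0590). Without shocked Low replicate 8 and shocked High replicate 1 its r was 0.35 and did not pass (permutation test, adjusted p = 0.211). Of the 8 haemocyte markers 2 were positive within Mid and 4 within High, with median log2 fold changes of −0.22 and 0.03 and 0 passing, and their part in the Hsc70-3 values was not tested.

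The values of the fat body markers in the same contrasts were as follows. Of 12 listed markers 11 were in the table and 10 were tested, while Fatp was at 0 in every library. Within Mid 9 of 10 had a positive log2 fold change, with a median of 0.62, and within High 2 of 10, with a median of −0.33. None passed in either. The summed level of the list ranged over 2503 to 10689 CPM in naive Mid, 3411 to 8320 in naive High, 2521 to 6704 in shocked High, 4373 to 15694 in shocked Mid and 1797 to 7856 in shocked Low. The neuron markers summed to 4720 to 5179 CPM in shocked Mid and to 4909 to 6295 CPM in naive Mid, with 0 of 10 positive within Mid and 1 of 10 within High. Their part in the asparagine-synthetase and Nmdmc values was not tested.

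**Figure D5:**
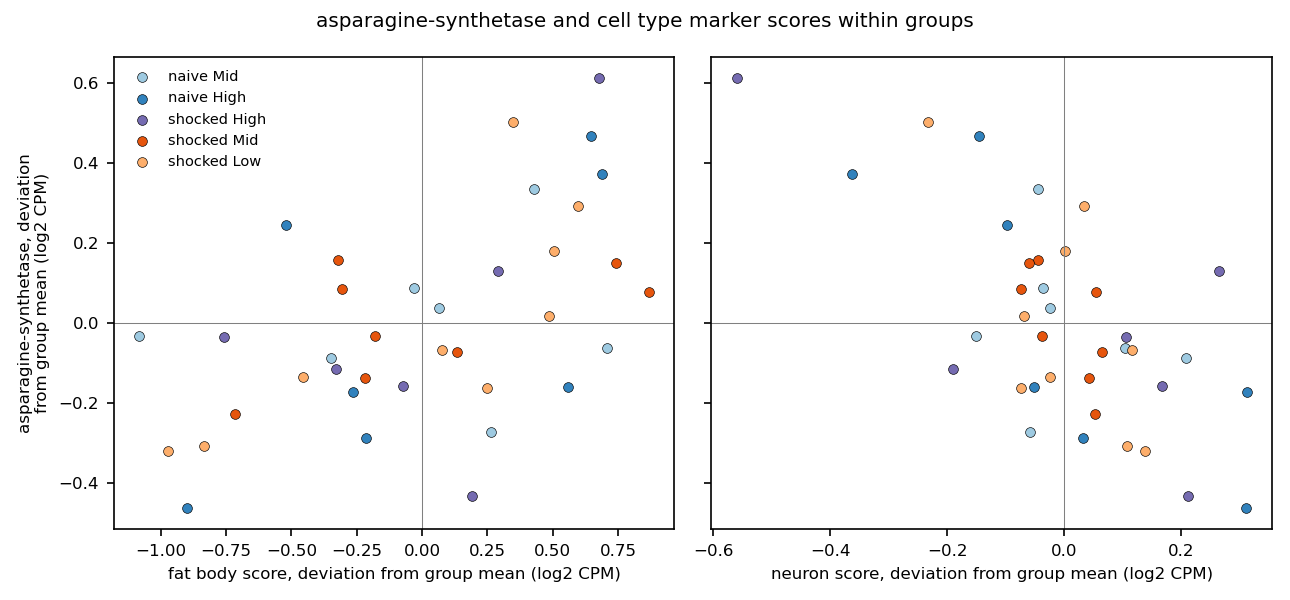
Deviation of asparagine-synthetase from its group mean (log2 CPM, vertical axes) against that of the fat body score and of the neuron score (log2 CPM, horizontal axes) in 37 libraries, coloured by group. The points rise with the fat body score (r = 0.54) and fall with the neuron score (r = −0.67), and shocked High replicate 3 is the highest point of both panels.

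The genes most like asparagine-synthetase were read from the same deviations over 10271 other genes, as a description. The highest correlations were those of Spn43Ad, a serpin protease inhibitor (r = 0.78), Gyk, a glycerol kinase (r = 0.78), Sec61alpha, the channel subunit through which proteins enter the endoplasmic reticulum (r = 0.78), NimB3 (r = 0.78) and SPE, a protease upstream of Toll (r = 0.77). All 5 use the same 37 libraries and so share their depth and their tissue makeup. NimB3 was low, with group means from 1.81 CPM in naive Mid to 3.88 CPM in shocked Mid, so its correlation rests on few counts. With group differences kept, the first 5 were nec, a serpin (r = 0.82), ade2, an enzyme of purine synthesis (r = 0.80), cathD, a lysosomal protease (r = 0.80), SPE (r = 0.79) and Sec61alpha (r = 0.79). SPE had 168 ± 32.5 CPM (n = 8) in shocked Mid heads and 104 ± 21.8 (n = 7) in naive Mid heads, a log2 difference of 0.69 (SE 0.18). Within High its log2 difference was −0.22 (SE 0.20). Both are descriptions with no test. Among the members Xbp1 ranked highest in likeness, at place 397, and crc was at place 855. Nmdmc had r = 0.43 in the deviations, at place 1152, and 0.72 with group differences kept. The values with group differences kept hold the shocked Mid minus naive Mid difference on which asparagine-synthetase was selected.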

How the data were processed

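Per the series design text, the authors trimmed reads with Trimmomatic, aligned them to dm6 with STAR, dropped secondary alignments and those of low mapping quality, used HTSeq-count for reads on exons, and ran DESeq2. The sources used here give no versions and no strand setting. Values of the deposited count table are raw counts per gene, per the file headers. A second deposited table gives q-values and log2 fold changes of the authors' own comparisons. Of 39 labelled samples 37 had a count column. The other 2, both shocked High, were not analysed here, and 2 columns matched no sample and were not used. The labels also speak of nuclear RNA, which was left unresolved.

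Genes were filtered with filterByExpr and scaled by TMM, and 10272 genes were fitted by quasi-likelihood with the 5 groups in 1 model (R 4.3.3, edgeR 4.0.16), with Benjamini-Hochberg adjustment over all of them at 0.05. Values in log2 CPM used a prior count of 2. Correlations used 100000 permutations. Alternatives used DESeq2 1.42.0 and limma 3.58.1, the latter for voom with quality weights, and figures matplotlib 3.10.9. The fits were tested on simulated data. Positions are from Ensembl release 115. The table's asparagine-synthetase identifier was matched to AsnS through a RefSeq synonym. Members, lists and comparisons were chosen with earlier results of these data known. The 8 members were always named. Each list contributed its genes of smallest p, up to 4 where any passed and 2 as not passing where none did. In the serine list aay and CG3011 were named outside this rule, after their values were seen. The 5 genes most correlated with asparagine-synthetase were also named. Library totals and replicate numbers limit precision as the standard errors show.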

Additional observations from a re-analysis of the deposited data

How the results depend on the processing

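For 28 member differences larger than their standard error, 7 alternatives (RLE scaling, no filter, the total count as a covariate, only the groups compared, DESeq2, limma with quality weights and a replicate block) gave 196 values, all with the same direction. Of these, 161 values of 23 differences had a test and none passed, while 5 asparagine-synthetase differences that use Mid heads had none. The number of tested members passing (7 where Mid heads enter, 8 elsewhere) was 0 in all comparisons under every alternative and in all 37 fits that left out 1 library. Counts over all genes did change. Within Mid they were 2 in the reported fit, 15 by DESeq2, 8 by limma, 14 with only the groups compared, 4 without the filter and 0 to 6 without 1 library. Shocked High against shocked Mid had 7, and 287 by DESeq2, 668 by limma, 67 with only those groups, 21 with the total count, 13 with RLE and 0 (without shocked High replicate 1) to 548 (without shocked High replicate 3) without 1 library. Shocked Low against shocked Mid had 2, and 100 by DESeq2, 6 by limma, 7 without the filter and 1 to 52 without 1 library. Over the 5 groups it was 11, and 88 by DESeq2, 22 without the filter, 1 with the total count and 1 to 17 without 1 library. In the authors' deposited table, genes with q under 0.05 were 283 between naive and shocked Mid and 9 between naive and shocked High. That table had 525 between shocked High and shocked Mid, and 195 between shocked Mid and shocked Low. The cause of these differences in counts was not tested. Comparisons with 0 reported calls stayed at 0 by DESeq2 and by limma, except the interaction, with 2 by limma.

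Libraries with the same replicate number in their titles did not deviate together as a rule (67 pairs, r from −0.33 to 0.30, median 0.02). Of 36 libraries, 7 correlated best with their own number, and the share under random numbering was not computed. Some library names carry other numbers than the titles, and pairing by those was not examined. With the replicate block 0 members passed, and over all genes 16 passed within Mid, 748 between shocked High and shocked Mid, 1 between shocked Low and shocked Mid and 38 over the 5 groups.

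Of 28 member correlations 4 passed as reported, 9 with the total count removed, 2 without the 2 farthest libraries and 2 by Spearman. Without 1 library, the asparagine-synthetase value within Mid ranged over 0.70 to 0.81 and within High over 0.09 to 0.32, and the Hsc70-3 value over 0.19 to 0.31 within Mid and 0.14 to 0.27 within High. The standard errors at this depth and spread, 0.06 for crc to 0.19 for Thor within Mid, bound the differences that could be seen.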
